A study of Drosophila melanogaster with 3 samples.

Results

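Penelope small RNAs whose lowest listed start, counted from 0, lay at 660 or above and below 1200 on the element were described in ovaries of 3 Drosophila melanogaster strains, A1a, A2d and A2h. Sequences of both orientations were taken, each counted once per strain. A1a gave 99 members among 970 distinct sequences, A2d gave 166 among 1800 and A2h gave 48 among 474. Over the 3 lists these were 253 of 2670 distinct sequences. Their reads numbered 173 of 1777 for A1a, 348 of 3870 for A2d and 78 of 748 for A2h. Each strain was represented by 1 library of small RNAs cut from a gel at 23 to 29 nt, made from ovaries of flies 3 to 5 days old kept at 25 degrees. The labels give no genotype, transgene or treatment beyond the strain names, and state that Penelope piRNAs had been seen in these strains on Northern blots. With 1 library per strain there was no test between strains.

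Penelope, first studied in Drosophila virilis for its part in hybrid dysgenesis, copies itself through RNA and gives its name to a family of retroelements with a GIY-YIG endonuclease domain. piRNAs are germline small RNAs that guide Piwi proteins to transposon transcripts. Primary piRNAs, which are antisense to most transposons, tend to begin with U. In the ping-pong cycle, such a piRNA guides the slicing of a transcript of the opposite strand, and the new piRNA made there overlaps its guide by 10 nt and so carries A at base 10.

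Positions here are counted from 1 on the authors' Penelope sequence, whose insertion sites in the fly genome the labels do not give. The reading frame of the element, rebuilt from the listed matches, ran from position 617 to 3190. The region therefore began in codon 15 and reached codon 195 of a frame of 857 codons. No read of any strain covered 44 of its 540 positions, in the stretches 772 to 798 and 938 to 954, so the frame is unread in both. The plus strand of the covered positions was 48.8% A and 17.3% U. No member matched at a second place on the element.

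The sequences that carry the results are shown 5′ to 3′ with T for U, as listed by the authors. Capitals mark base 1 and base 10. The first group is the sense cluster that led the sense members of A1a and A2d.
Sense 1128, 25 nt: TacgagatcAacggaacctagcctt
Sense 1128, 24 nt: TacgagatcAacggaacctagcct
Sense 1127, 26 nt: TtacgagatCaacggaacctagcctt
Sense 1123, 29 nt: TaagttacgAgatcaacggaacctagcct
The second group holds the leading antisense members, each named by the position of its 5′ end.
Antisense 1158, 26 nt: TccgctaagGctaggttccgttgatc
Antisense 1222, 25 nt: TacgacgttTggcgggaattctatt
Antisense 1045, 25 nt: TtttgcgtcAtctgtggtcatcagt
Antisense 1044, 24 nt: TttgcgtcaTctgtggtcatcagt
Antisense 696, 27 nt: TttgcgtagCtcatgttggttgctgtg

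The strand of the members separated A2h from both other libraries. Antisense reads, which can pair with the Penelope transcript, were 27.7% of member reads in A1a (48 of 173, interval 21.2 to 35.1%), 27.9% in A2d (97 of 348, 23.2 to 32.9%) and 94.9% in A2h (74 of 78, 87.4 to 98.6%). Ranges given here and later are 95% binomial intervals by the exact Clopper-Pearson method, and they take in no error other than that of counting. Reads amplified by PCR without molecular identifiers are not independent molecules. A1a and A2d had nearly the same share, and A2h lay far from both.

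In A1a and A2d the strand balance of the region was opposite to that of the rest of the element. The antisense share was 27.7% in the region against 60.3% (57.8 to 62.7%) elsewhere in A1a, and 27.9% against 63.9% (62.3 to 65.5%) elsewhere in A2d. In A2h it was 94.9% in the region against 93.9% (91.8 to 95.6%) elsewhere. The differences, region minus rest, were -32.5, -36.01 and 0.99 percentage points in A1a, A2d and A2h, with a mean of -22.5 points. An exact two-sided sign-flip permutation test over the 3 strains gave p = 0.5, and the smallest p that 3 strains allow is 0.25.

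The region's share of all listed reads was similar in the 3 libraries, at 9.74% in A1a (8.40 to 11.2%), 8.99% in A2d (8.11 to 9.94%) and 10.4% in A2h (8.33 to 12.8%). Split by strand, the region's share of antisense reads was higher in A2h than in A1a and A2d. For sense reads the interval of A2h included the values of A1a and A2d. The region held 16.4% of the listed sense reads in A1a (125 of 762, 13.8 to 19.2%), 16.5% in A2d (251 of 1523, 14.7 to 18.4%) and 8.89% in A2h (4 of 45, 2.48 to 21.2%). It held 4.73% of the antisense reads in A1a (48 of 1015, 3.51 to 6.22%), 4.13% in A2d (97 of 2347, 3.36 to 5.02%) and 10.5% in A2h (74 of 703, 8.36 to 13.03%).

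Reads of either strand with their lowest position in the 300 positions beyond the region showed another balance. Against 27.7% and 27.9% in the region, the antisense share there was 82.7% (182 of 220, 77.1 to 87.5%) in A1a and 77.9% (348 of 447, 73.7 to 81.6%) in A2d. In A2h the share was 94.9% in the region, and there all 317 reads of the neighbouring stretch were antisense (98.8 to 100%). The sense excess of A1a and A2d was thus not seen in the neighbouring stretch, and this contrast was not tested.

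A single position held nearly as many sense reads of A1a and A2d as all others together. Position 1128, in codon 171, was the 5′ end of 60 of 125 sense reads in A1a (48.0%, 38.98 to 57.1%) and of 117 of 251 in A2d (46.6%, 40.3 to 53.0%). In A2h, 1 of 4 sense reads began there. The same position led in A1a and A2d, and their shares differed by less than the counting error. Counting each distinct sequence once, its share was 19.6% in A1a and 15% in A2d.

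The next sense positions lay just upstream of it and were the same in both libraries. Position 1127 had 13 reads in A1a, 23 in A2d and none in A2h. Position 1123 had 9 A1a reads, 12 A2d reads and 2 A2h reads, and in A2h it was the leading sense position. The 6 positions from 1123 to 1128 together held 69.6% of the sense member reads in A1a (87 of 125, 60.7 to 77.5%), 65.7% in A2d (165 of 251, 59.5 to 71.6%) and 3 of 4 in A2h.

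Along the element the cluster and its surroundings read as follows, from position 1118 to 1167 of the plus strand, with the 25 nt sense sequence that begins at 1128 in capitals.
Penelope 1118 to 1167: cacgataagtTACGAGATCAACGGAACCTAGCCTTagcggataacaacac

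The members of the cluster had different 5′ ends but nearly common 3′ ends. Of the reads that began at 1123 to 1128, those that ended at 1150 to 1152 were 94.3% for A1a (82 of 87), 93.9% for A2d (155 of 165) and 2 of 3 for A2h. These 3′ ends were examined after the 5′ ends had been seen. Reads from 1128 were therefore short, with 24 reads of 24 nt and 32 of 25 nt among 60 in A1a, and 38 of 24 nt and 73 of 25 nt among 117 in A2d. Reads from 1127 were most often 26 nt, with 6 of 13 for A1a and 11 of 23 for A2d. Reads from 1123 were longer still, with 5 of 9 at 29 nt in A1a and 5 of 12 at 28 nt in A2d.

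Single sequences of the cluster were the most abundant members of A1a and A2d. The 25 nt sequence from 1128 was read 28 times in A1a, 64 times in A2d and 1 time in A2h. The 24 nt form had 20 reads in A1a, 32 in A2d and none in A2h, where a count of 0 allows up to 3 counts, or 0.401% of the list. The 26 nt form from 1127 had 5 and 10 reads, and the 29 nt form from 1123 had 5 and 3, in A1a and A2d, with none of either in A2h. In all, 11 distinct sequences began at 1128 in A1a and 15 in A2d.

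Sense reads outside the cluster were most frequent in a second window, where no single sequence was abundant. The window from 841 to 900 held 23 sense reads in A1a (18.4%, 12.04 to 26.3%), 43 in A2d (17.1%, 12.7 to 22.4%) and 1 in A2h. No sequence there exceeded 2 reads in A1a or 4 in A2d. Its reads began with U in 21.7% (5 of 23) in A1a and 32.6% (14 of 43) in A2d. They had A at base 10 in 30.4% (7 of 23) in A1a and 60.5% (26 of 43) in A2d. This window was singled out after its values were seen. Position 881, the only one there used in all 3 strains, had 4 A1a, 6 A2d and 1 A2h reads. No sense read began from 1021 to 1080 in any library.

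No antisense position held as large a share in A1a or A2d as position 1128 held of the sense reads, and the order of the leading positions varied between strains. In A1a the first was 1222 with 6 of 48 antisense reads (12.5%, 4.73 to 25.2%), then 1215 with 4 and 696 with 3. In A2d the first was 1158 with 11 of 97 reads (11.3%, 5.80 to 19.4%), then 1045 with 9 and 1044 with 7. In A2h the first was 1222 with 12 of 74 reads (16.2%, 8.67 to 26.6%), then 1158 with 11 and 1153 with 6. The counts are too small to order neighbouring positions within a library, since their intervals overlap.

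Position 1158 held its lowest share of antisense reads in A1a, but the intervals of the 3 libraries overlap. It had 1 antisense read in A1a (2.08%, 0.0527 to 11.1%), against 11 in A2d (11.3%, 5.80 to 19.4%) and 11 in A2h (14.9%, 7.66 to 25.04%). Its 26 nt sequence spans 1133 to 1158, so most of it is complementary to the sense cluster. That sequence had 1 read in A1a, 8 in A2d and 10 in A2h, and was the most abundant member of A2h. The 25 nt sequence with its 5′ end at 1222 had 3 A1a, 3 A2d and 6 A2h reads. The pair of sequences at 1045 and 1044 share their 3′ end at 1021. The first had 2, 8 and 3 reads and the second 0, 5 and 4 reads in A1a, A2d and A2h. The 27 nt sequence at 696 had 2 reads in A1a and none in A2d or A2h.

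By window, antisense 5′ ends were most frequent near the downstream edge in A2h and more spread in A1a and A2d. The window from 1141 to 1200 held 11 antisense reads in A1a (22.9%, 12.03 to 37.3%), 35 in A2d (36.1%, 26.6 to 46.5%) and 26 in A2h (35.1%, 24.4 to 47.1%). The window from 1201 to 1260, reached by 5′ ends of reads that start inside the region, held 12 in A1a, 13 in A2d and 24 in A2h. From 1021 to 1080 there were 7, 25 and 15 antisense reads in A1a, A2d and A2h. From 1081 to 1140, where the sense cluster begins, there were 5, 3 and 1 antisense reads, against 96, 188 and 3 sense reads.

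The choice of 5′ positions was partly common to the strains. Sense 5′ ends fell on 27 positions in A1a, 52 in A2d and 3 in A2h. A1a and A2d had 17 of them in common, 63.0% of the A1a and 32.7% of the A2d positions, and these held 89.6% of the sense reads in A1a and 79.7% in A2d. All 3 sense positions of A2h were used in both other strains. Antisense 5′ ends fell on 36 positions in A1a, 46 in A2d and 28 in A2h. A1a and A2d shared 21, with 68.8% and 67.0% of their antisense reads. A2d and A2h shared 12, with 49.5% of the antisense reads in A2d and 68.9% in A2h. A1a and A2h shared 10, with 43.8% and 66.2%.

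Counted by reads, members were on average slightly shorter than the other Penelope sequences in each library. With each sequence counted once, the mean difference was much smaller and was not tested. By reads, the mean length of members was 25.4 ± 1.52 nt in A1a (SD over 173 reads), against 25.9 ± 1.58 nt for the rest. It was 25.6 ± 1.44 nt (SD over 348 reads) against 26.03 ± 1.54 nt in A2d, and 25.7 ± 1.39 nt (SD over 78 reads) against 26.04 ± 1.67 nt in A2h. The differences of -0.52, -0.41 and -0.38 nt had the same sign in 3 of 3 strains, and the exact two-sided sign-flip permutation test gave p = 0.25, the smallest it can give. The most frequent length was 25 nt in A1a (51 reads, 29.5%) and A2d (115 reads, 33.0%) and 26 nt in A2h (22 reads, 28.2%). The mean of the 3 differences was -0.44 nt by reads and -0.012 nt with each sequence counted once. Without the leading 5′ position of each strand the member mean was 25.9 nt in A1a, 26.1 nt in A2d and 25.7 nt in A2h.

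The strands had similar lengths within the region. Sense reads averaged 25.4 ± 1.58 nt and antisense reads 25.4 ± 1.37 nt in A1a. In A2d they averaged 25.6 ± 1.45 nt and 25.7 ± 1.43 nt. In A2h the 4 sense reads averaged 26.2 ± 1.5 nt and the 74 antisense reads 25.6 ± 1.39 nt. Each SD is over the reads of that strand.

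U at base 1 was frequent on both strands. Among sense member reads it was found in 73.6% in A1a (92 of 125, 64.97 to 81.1%), 70.5% in A2d (177 of 251, 64.5 to 76.1%) and 3 of 4 in A2h. U made up 16.3%, 16.8% and 16.5% of their bases outside positions 1 and 10. The sense reads elsewhere had U at base 1 in 57.9% in A1a, 52.8% in A2d and 56.1% in A2h. The region was higher in 3 of 3 strains, by 15.7, 17.8 and 18.9 points, with p = 0.25 in the exact two-sided sign-flip permutation test, the smallest it allows.

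All listed sequences at position 1128 begin with U. Without the reads of that position, 49.2% (32 of 65, 36.6 to 61.9%) of the sense member reads of A1a and 44.8% (60 of 134, 36.2 to 53.6%) of those of A2d began with U. Taking out the leading position, chosen after it was seen, had to lower these shares, and the sense reads elsewhere keep their own leading positions, so these sets are not compared. Counting each distinct sequence once gave 50% in the region against 50.8% elsewhere in A1a, and 45.0% against 42.5% in A2d.

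Antisense members began with U in 81.2% in A1a (39 of 48, 67.4 to 91.1%), 78.4% in A2d (76 of 97, 68.8 to 86.1%) and 86.5% in A2h (64 of 74, 76.5 to 93.3%). U made up 42.8%, 39.1% and 38.8% of their other bases. Elsewhere antisense reads had 72.9%, 79.9% and 80.9%, which lay within the intervals of the region. The places used by antisense 5′ ends were likewise mostly U. Of the 242 covered positions that read U on the minus strand, 25 were antisense 5′ ends in A1a (10.3%), 28 in A2d (11.6%) and 17 in A2h (7.02%). Of the 104 that read G, 1, 3 and 1 were used. Of the 64 that read C, 3 (4.69%), 6 (9.38%) and 2 (3.12%) were used. Of the 86 that read A, 3 (3.49%), 3 (3.49%) and 4 (4.65%) were used. In A2d the antisense rates of U and C thus lay close together.

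On the sense strand, places with U and places with C were used at similar rates. In A1a 8 of 86 positions with U (9.30%) and 11 of 104 with C (10.6%) were sense 5′ ends, and in A2d 13 (15.1%) and 15 (14.4%). Positions with A were used in 7 of 242 cases in A1a (2.89%) and 18 in A2d (7.44%). Those with G were used in 1 of 64 cases in A1a (1.56%) and 6 in A2d (9.38%). U thus led among sense reads by their number at a few places, not by the number of places.

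A at base 10 was frequent among sense members. It was found in 72.0% in A1a (90 of 125, 63.3 to 79.7%), 73.3% in A2d (184 of 251, 67.4 to 78.7%) and 4 of 4 in A2h (39.8 to 100%). A made up 35.0%, 35.9% and 36.1% of the other bases of these reads. Sense reads elsewhere had A at base 10 in 54.3%, 48.3% and 43.9%. The region was higher in 3 of 3 strains, by 17.7, 24.96 and 56.1 points, the last resting on 4 reads, with p = 0.25 in the exact two-sided sign-flip permutation test, again the smallest possible.

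Position 1128 contributed to this, since all its listed sequences have both marks. Reads with both U at base 1 and A at base 10 made up 58.4% of sense member reads in A1a (73 of 125) and 53.4% in A2d (134 of 251). Without position 1128, A at base 10 was found in 46.2% in A1a (30 of 65, 33.7 to 59.0%) and 50% in A2d (67 of 134, 41.2 to 58.8%). The background among the other bases of those reads was 38.4% and 39.9%, so that the interval of A1a included it and that of A2d did not. Counting each sequence once, 58.9% of the sense members of A1a (45.0 to 71.9%) and 60% of those of A2d (49.7 to 69.7%) had A at base 10, against 48.1% and 48.6% of the sense sequences elsewhere.

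Antisense members had A at base 10 in 25.0% in A1a (12 of 48, 13.6 to 39.6%), 25.8% in A2d (25 of 97, 17.4 to 35.7%) and 18.9% in A2h (14 of 74, 10.7 to 29.7%). The share of A among their other bases was 14.1%, 14.9% and 16.0%. The intervals of A1a and A2h reached that background and that of A2d did not. Antisense reads elsewhere had 29.4%, 26.3% and 23.5%.

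The leading sense sequences have U at base 1 and A at base 10, but 10 nt overlaps in the region were not more frequent than several other overlaps. Partners of the members were looked for among all listed sequences of the same library, members or not. In A1a the members formed 8 read pairs at an overlap of 10 nt, while the other overlaps from 1 to 20 nt averaged 9.05 ± 7.28 (SD over overlaps), and 9 of those held more pairs. In A2d they formed 53, against a mean of 38.8 ± 31.8, and 3 other overlaps held more. In A2h they formed none, against a mean of 0.316.

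Elsewhere on the element the 10 nt overlap stood out in the same 2 libraries. The ratio of pairs at 10 nt to the mean of the other overlaps was 0.884 for members against 4.33 for all other sequences in A1a, and 1.36 against 3.65 in A2d. In A2h it was 0 against 0.704. Partners of the other sequences were looked for among non-members only, so the 2 ratios rest on different pools of partners. Outside the region no other overlap held more pairs than 10 nt in A1a or A2d. The ratio rests on products of counts and carries no p-value.

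The leading sense position had no 10 nt partner in any library. An antisense partner of the reads at 1128 would begin at 1137, where A1a, A2d and A2h listed 0 antisense reads. The nearest antisense 5′ end inside the 20 nt looked at was 1142, an overlap of 15 nt, with no read in A1a, 1 in A2d and 2 in A2h. The single A2d read there, multiplied by the 117 sense reads, gives 117 of the 137 pairs at 15 nt, the overlap with most pairs among A2d members.

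By reads, 3.20% of the sense members of A1a (4 of 125, 0.879 to 7.99%) and 3.59% of those of A2d (9 of 251, 1.65 to 6.70%) had a 10 nt partner. The mean over other overlaps was 2.82% and 7.30%. Among antisense members 14.6% in A1a (7 of 48, 6.07 to 27.8%) and 17.5% in A2d (17 of 97, 10.6 to 26.6%) had one, against means of 10.4% and 11.01% over other overlaps. In A2h 0 of 4 sense and 0 of 74 antisense reads had one, with upper limits of 60.2% and 4.86%. Such shares depend on depth and strand balance, which differ between the libraries.

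None of the 10 nt pairs involved position 1128. The sequences of the pairs with the largest product of counts in which both partners are members are shown, with that of A2d tied with a longer form of the same sense sequence.
Sense 1152, A1a, 2 reads: TagcggataAcaacacgcaaagagagt
Antisense 1161, A1a, 1 read: TtatccgctAaggctaggttccgtt
Sense 884, A2d, 1 read: CctgacataAcaagaacattgacta
Antisense 893, A2d, 3 reads: TtatgtcagGgtgggttttattttcagtg
The largest product of counts of any A2d member at 10 nt involved a sense sequence just outside the region, at 1213 with 3 reads, and the antisense member at 1222 with 3 reads. Counting only partners that are members, 8.25% of the antisense members of A2d had a partner at 10 nt, against 17.5% with all sequences.

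Of the 253 distinct members, 8 were common to all 3 lists. A1a and A2d had 44 identical members, which held 65.3% of the member reads of A1a (57.7 to 72.4%) and 55.2% of those of A2d (49.8 to 60.5%). A1a and A2h had 10 in common, with 23.1% and 37.2% of their member reads. A2d and A2h had 14, with 29.6% and 50%. Members listed in a single strain numbered 53 in A1a, 116 in A2d and 32 in A2h, and held 33.5%, 41.7% and 46.2% of the member reads. The 99, 166 and 48 members of A1a, A2d and A2h made 253 distinct sequences. The whole lists, with 970, 1800 and 474 sequences, made 2670. Sharing between pairs of whole lists was not counted, so these numbers are not read as a trait of the region. The number of shared sequences depends on depth, and 82.8% of the members of A1a, 72.3% of A2d and 75.0% of A2h were seen a single time.

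A total of 8 members were present in all 3 strains, 3 sense and 5 antisense. They held 22.0% of the member reads in A1a (16.04 to 28.9%), 26.4% in A2d (21.9 to 31.4%) and 33.3% in A2h (23.1 to 44.9%). The sense ones were the 25 nt sequence from 1128 and forms of 27 and 28 nt from 1123. The antisense ones were 3 length forms at 1222 and the sequences shown at 1158 and 1045.

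Mismatches to the authors' sequence were less frequent in the region than over the rest of the element in A1a and A2d, but in A2d not than in the neighbouring 300 positions. They were listed for 9.25% of member reads in A1a (16 of 173, 5.38 to 14.6%), 11.2% in A2d (39 of 348, 8.09 to 15.0%) and 6.41% in A2h (5 of 78, 2.11 to 14.3%). The other reads had 24.1%, 19.7% and 11.8%, the last within the interval of the region in A2h. Reads with their lowest position in the 300 positions beyond had 15.9% in A1a (11.3 to 21.4%), 11.6% in A2d (8.81 to 14.97%) and 8.52% in A2h (5.69 to 12.2%). These intervals overlap those of the region. Counted on the read strand, G-to-T changes were 9 of 17 mismatched bases in A1a members, 25 of 40 in A2d and 2 of 5 in A2h, against 28.8%, 26.2% and 28.2% elsewhere. The totals elsewhere include the T-to-A changes, which were 42.5% of them in A1a, 34.4% in A2d and 13.6% in A2h. The lower G-to-T shares elsewhere are therefore not read as a G-to-T excess of the region. Among members, T-to-A was only 1 of the 40 mismatched bases of A2d and was absent from the other libraries. Mismatch frequencies without T-to-A were not compared. The lower frequency in the region is therefore not read as a closer match to the element for other kinds of change. The most frequent member change, G1140T on the plus strand with the authors' base first, was seen in 1 read of A1a among 102 that cover it, in 7 among 208 of A2d and in 0 among 24 of A2h. C871A, counted the same way, was seen in 1 read of 14, 3 of 25 and 0 of 2 in A1a, A2d and A2h, and the 3 reads of A2d were all of the antisense sequence shown at 893.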

How the data were processed

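The authors deposited, per strain, a list of small RNA sequences matching Penelope with raw read counts per sequence, with no normalisation named in the file headers. In the labels' protocols, ovarian small RNAs were size selected on a gel, ligated to TruSeq adapters, amplified by PCR and multiplexed. No label or header names the aligner, the trimming or the source of the Penelope sequence. Starts count from 0 and are printed from 1. The lists of A1a and A2d hold 3 and 2 empty lines, 5 in all and none between lines of member starts, which were left out. Each sequence was counted once.

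The members and the list of readouts were chosen with earlier results of these data known. A base's background was its share at all read positions other than 1 and 10. Pairs at an overlap were sums of products of read counts over sense-antisense sequence pairs. Overlap counting was tested on simulated data. Named were, per strain and strand, the 3 most abundant members and the 3 leading 5′ positions with 2 or more reads, the 3 members of all lists with the highest summed rank, and the member pair at 10 nt with the largest product. Alternatives were each sequence once, 2 or more reads, exact matches, without the top member, membership by 5′ end, 23 to 29 nt, wider overlaps or positions, other windows and the first 20 nt. Leaving out the leading positions was added after seeing the data. Analysis used Python 3.11.15, pandas 2.3.3 and SciPy 1.17.1. Over the 8 sign-flip tests the Benjamini-Hochberg adjusted p was 0.4 or more.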

Additional observations from a re-analysis of the deposited data

Results flagged for a closer look

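Region minus rest took opposite signs between strains for 3 measures, and with 1 library per strain the difference between strains was not tested. The antisense share differed by -32.5 points in A1a, -36.01 points in A2d and 0.99 points in A2h, where the interval of the region included the value of the rest. The share of antisense reads with U at base 1 differed by 8.34, -1.52 and 5.56 points in A1a, A2d and A2h, each within the counting interval of the region. The mean length of sense reads differed by -0.66, -0.66 and 1.62 nt, the last resting on 4 member reads of A2h.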

How the results depend on the processing

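Of 250 alternative values for 45 results, 201 stayed within the limit set around the main value and 49 moved beyond it. The limit was 0.5 nt for mean lengths, 1.5-fold for counts of shared sequences, and otherwise the main value's interval or spread. Only the mean differences of region minus rest could change sign, and they did not. The mean length difference stayed within 0.5 nt, although it went from -0.44 nt by reads to -0.012 nt with each sequence counted once. The antisense share lay between 9.89 and 43.4% in A1a, between 19.3 and 39.8% in A2d and between 91.7 and 100% in A2h, so that sense reads led in A1a and A2d under each alternative. The cause of the moves was not tested.

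Counting each sequence once moved the antisense share to 43.4% in A1a and 39.8% in A2d, sense U at base 1 to 50% and 45%, sense A at base 10 to 58.9% and 60%, and position 1128 to 19.6% and 15.0%. In A2d it also moved sense 10 nt partners to 8.00% and antisense position 1158 to 4.55%.

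With 2 or more reads only, the antisense share was 9.89%, 19.3% and 100% in A1a, A2d and A2h. Antisense U at base 1 was 100%, 86.4% and 100%, sense U at base 1 was 89.02% in A1a and 82.1% in A2d, antisense A at base 10 was 44.4% in A1a, and sense A at base 10 was 79.9% in A2d. No A1a member of either strand then had a 10 nt partner (0%), and in A2d the shares were 0% of sense and 6.82% of antisense reads. A1a and A2d shared 25 sequences when 2 or more reads in at least 1 list were required.

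Without the leading 5′ position of each strand, members held 6.25% of the list in A1a and 5.88% in A2d, with antisense shares of 39.3% and 39.1%, sense U at base 1 of 49.2% and 44.8%, and sense A at base 10 of 46.2% and 50%. The mean length in A1a was then 25.9 nt, and 6.72% of the sense reads of A2d had a 10 nt partner. Without the most abundant member, members held 8.29% of the list in A1a and 7.46% in A2d, and in A2d the antisense share was 34.2%, sense U at base 1 was 60.4% and sense A at base 10 was 64.2%.

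Choosing members by 5′ end gave 9.52% of the antisense reads of A2d with a 10 nt partner, and in A2h 7.22% of the list and antisense A at base 10 of 10%. Partners among members only gave 8.25% of the antisense reads of A2d. Overlaps of 9 to 11 nt gave 8.80% and 8.37% of sense reads in A1a and A2d. Merging 5′ ends within 2 nt gave 60.8% and 58.96% at 1128. Exact matches gave a member share of 11.4% in A1a.

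Depth limits A2h most. Its 748 reads allow up to 0.401% for a sequence with a count of 0, against 0.169% in A1a and 0.0775% in A2d, and its sense values rest on 4 reads. Each strain was 1 library, so differences between strains have no replicate check, and strain and library cannot be told apart. Most members, like most listed sequences, were seen a single time. The lists hold reads that match the element only, so levels per sequenced library are not analysed here.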
